A study of Mus musculus with 9 samples.

Results

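The nuclear-encoded subunits of the respiratory chain and ATP synthase were followed in cultured muscle precursor cells given low or high glycine. Members were chosen by gene symbol alone: every row of the deposited table whose symbol begins with Nduf and a subunit letter, Uqcr, Cox4 to Cox8 or Atp5, or is Sdha to Sdhd, Cyc1 or Cycs. Rows with the assembly factor symbols Ndufaf, Sdhaf and Uqcc and 5 pseudogene rows were dropped. This gave 86 genes of 53715 in the table, all protein-coding and spread over 19 chromosomes. They comprise 35 genes of complex I, 4 of complex II, 9 of complex III, 20 of complex IV, 17 of complex V and cytochrome c. The NDUFA4 pair was counted with complex IV, where its protein works. The symbols also brought in 3 genes that are not subunits in the strict sense, namely Atp5s, Atp5sl and the supercomplex factor Cox7a2l.

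RNA was sequenced from primary myoblasts, the precursors that fuse into muscle fibres, at passage 1. All came from the strain C57BL/10ScSn-Dmdmdx/J, a dystrophin-deficient mouse used as a model of Duchenne muscular dystrophy, so the controls carry the mutation too and there is no wild-type group. Cells were given 0.2 mM glycine (3 libraries) or 0.8 mM glycine (6 libraries), and the question is how gene expression differs with the amino acid. "Rose" and "fell" mean higher or lower at 0.8 than at 0.2 mM. Whether the libraries of a level are separate cultures or separate animals is not in the labels, and the p-values reflect only how these libraries vary, which could be technical variation. Each glycine level has its own numbered library series, and any batch along that series cannot be told apart from glycine.

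Complexes I to IV pass electrons from NADH and succinate to oxygen and, except for complex II, pump protons across the inner mitochondrial membrane, and complex V, the ATP synthase, lets the protons back to make ATP. Most of their subunits are encoded in the nucleus and imported, while the mitochondrial genome encodes a few at the core of complexes I, III, IV and V. Several complex IV subunits exist as a form found in most tissues and a form of heart and skeletal muscle, and muscle cells exchange one for the other as they mature.

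Values are TPM, a length-normalised abundance. They divide reads by gene length and scale each library to the same total. A mean is followed by its SD across the libraries of its level (n = 3 or n = 6). Where a gene is given 3 values and then a range with its median, the values are those of the libraries at 0.2 mM and the range is that at 0.8 mM. TPM keeps no read number, so the depth behind each value is unknown. Log2 fold changes are of TPM + 1, 0.8 mM minus 0.2 mM, with their standard errors, and adjusted p-values are from limma with Benjamini-Hochberg adjustment over all 10049 genes tested, with a threshold of 0.05.

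At 0.8 mM glycine most members rose, the larger part of them by less than 1 on the log2 scale. Of the 84 members tested, 60 rose and 3 fell, and 21 did not pass. Among all genes tested, 16.7% rose, 9.81% fell and 26.6% passed in either direction. The median log2 fold change was 0.34 over the tested members and 0.062 over all genes tested. The 3 that fell were Cox6a2, Uqcrq and Cox7a2l. The values of the groups did not overlap for 63 members, against 28.2% of all genes tested. The remaining members, Cox7b2 and Cox8c, paralogues of subunits VIIb and VIII, were at 0 TPM in every library.

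The members together held 2.81 ± 0.0663% of all TPM at 0.2 mM and 3.77 ± 0.0553% at 0.8 mM, with no overlap between groups. They varied little within a group: the median standard deviation of log2(TPM + 1) was 0.088 over the members and 0.226 over all genes tested. The members and all genes were not matched for abundance, and its part in this contrast was not tested. Some scalings moved the balance of calls. Of all genes that passed, 63.1% rose, compared with 52.6% after scaling by median ratios, 49.8% after quantile normalization and 49.1% after correcting for GC content and transcript length. Under these settings 51, 43 and 45 members rose and 4, 5 and 6 fell. Genes of cytosolic ribosomal proteins, which are very abundant, made up 23.5 ± 0.598% of a low-glycine library's TPM and 21.0 ± 0.431% of a high-glycine one's. With them left out and TPM rescaled 56 members rose and 3 fell. Ribosomal RNA genes held 21.7 ± 1.65% at 0.2 mM and 19.7 ± 1.66% at 0.8 mM, with overlapping groups. With ribosomal RNA and mitochondrially encoded genes left out and TPM rescaled, 55 members rose and 3 fell. Exons of 29 members overlap those of another gene, and the use of strand is not given in the sources used here, so reads in such stretches cannot be assigned with certainty. The other gene reached 10 TPM in a group for 5 of them, Ndufa4l2, Ndufs1, Ndufs6, Cox4i1 and Ndufb6. Several of these short genes also have processed pseudogenes, and how reads were divided among near-identical copies is not given.

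**Figure D1:**
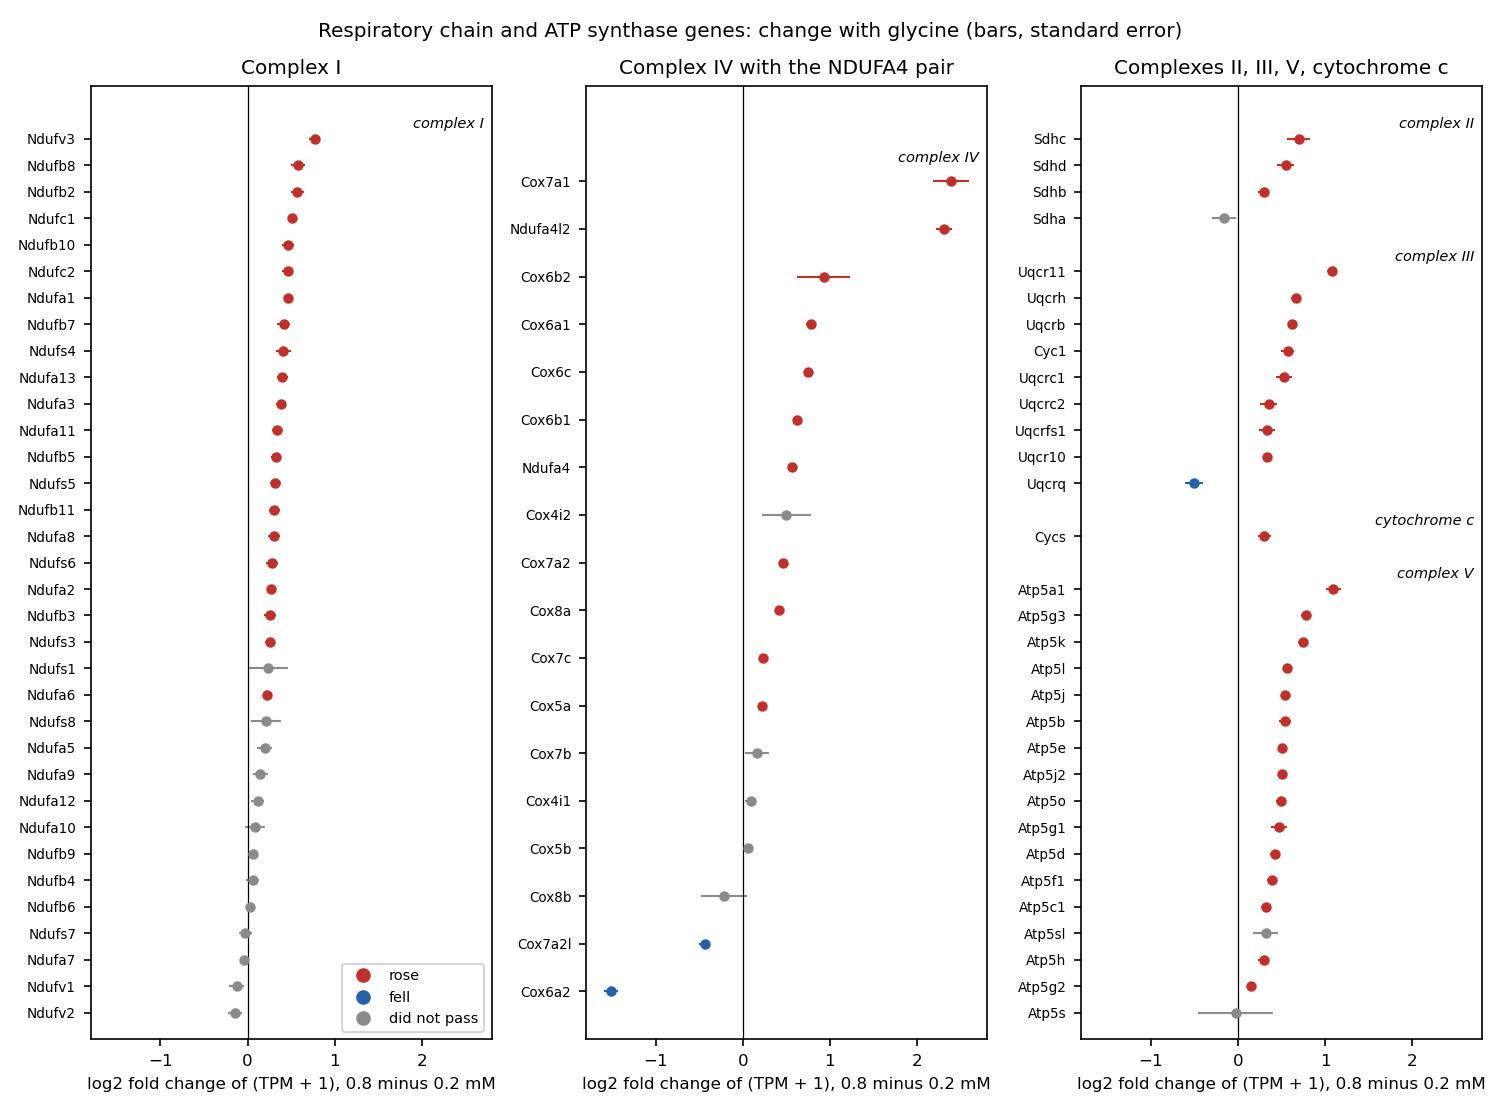
Log2 fold change of TPM + 1 (x axis, 0.8 minus 0.2 mM glycine) of tested members (rows), by complex, with bars of 1 standard error. Most points lie to the right of 0, the largest being Cox7a1 at 2.39 and Ndufa4l2 at 2.31, and Cox6a2 lies far to the left at -1.52.

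Markers of muscle cells moved with the members. The muscle factor Myod1 rose from 35.7 ± 4.55 to 69.3 ± 5.70 TPM and Myog from 247 ± 16.9 to 523 ± 41.2 TPM. The satellite cell factor Pax7 was near 1 TPM, at 0.712 ± 0.176 and 1.20 ± 0.312 TPM. Markers of other cell types were abundant too. The highest fibroblast marker at 0.2 mM, Dcn, was at 1878 ± 184 TPM there and 1689 ± 209 TPM at 0.8 mM. The highest leukocyte marker at 0.2 mM, Fcer1g, was at 949 ± 39.2 and 888 ± 36.3 TPM. Of 12 muscle markers, 11 rose, and their summed level ranged from 2408 to 2872 TPM at 0.2 mM and 8022 to 9732 TPM at 0.8 mM. Of 10 leukocyte and macrophage markers, 4 rose and 2 fell, with sums from 1862 to 2032 TPM at 0.2 mM and 2054 to 2503 TPM at 0.8 mM. Of 9 tested markers of fibroblasts and fibro-adipogenic progenitors, 6 rose, with sums from 2309 to 2691 TPM at 0.2 mM and 2716 to 3288 TPM at 0.8 mM, and Tcf21 was at 0. All 4 tested endothelial markers rose, from low sums of 11.2 to 12.1 TPM at 0.2 mM and 20.2 to 29.7 TPM at 0.8 mM. Of 6 adipocyte markers only Fabp4 could be tested and it rose, with sums from 12.8 to 14.7 TPM at 0.2 mM and 22.3 to 34.7 TPM at 0.8 mM, and Lep and Ucp1 were at 0. In bulk RNA, fewer cells of a type and less RNA per cell cannot be told apart, and the part of these cell types in the results below was not tested.

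The members that moved furthest, Cox7a1, Ndufa4l2 and Cox6a2, all belong to paired isoforms of complex IV, or cytochrome c oxidase, and they did not move one way. Among the muscle forms Cox6a2 fell, Cox7a1 rose and Cox8b did not pass. Cox6a2 and its partner Cox6a1 encode the same subunit, VIa, which sits at the interface of the oxidase dimer. Their coding sequences, taken from the GENCODE M21 transcripts, are shown because the pair moved in opposite directions and reads must be assigned to one or the other. Cox6a2 is shown whole and Cox6a1 from base 40 to its last base, 339. Capitals mark bases that differ between the forms or have no partner in the alignment.

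Cox6a2: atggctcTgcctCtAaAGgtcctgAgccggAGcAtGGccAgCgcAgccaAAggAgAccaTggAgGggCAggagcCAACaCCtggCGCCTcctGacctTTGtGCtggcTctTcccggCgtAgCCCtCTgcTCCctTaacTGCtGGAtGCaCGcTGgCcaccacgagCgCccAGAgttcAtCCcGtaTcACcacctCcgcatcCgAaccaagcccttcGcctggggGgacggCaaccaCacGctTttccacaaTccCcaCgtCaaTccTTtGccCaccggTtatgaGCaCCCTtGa
Cox6a1: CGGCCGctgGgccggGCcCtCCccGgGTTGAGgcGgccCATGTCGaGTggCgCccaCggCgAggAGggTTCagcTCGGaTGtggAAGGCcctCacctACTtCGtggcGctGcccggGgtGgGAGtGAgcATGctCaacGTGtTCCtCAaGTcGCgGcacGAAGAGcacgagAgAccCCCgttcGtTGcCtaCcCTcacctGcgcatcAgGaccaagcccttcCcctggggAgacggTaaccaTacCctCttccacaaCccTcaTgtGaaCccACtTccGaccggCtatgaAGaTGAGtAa

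The coding sequences are 294 and 339 bases long and are identical at 190 of 294 aligned bases, or 64.6%. The longest run they share without a gap or mismatch is 12 bases. The muscle and general forms of subunit VIIa, Cox7a1 and Cox7a2, are identical at 65.5% of aligned coding bases, those of subunit VIII, Cox8b and Cox8a, at 56.4%, and Ndufa4l2 and Ndufa4 at 68.6%, with a longest shared run of 28 bases in the last pair.

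Cox6a2 (ENSMUSG00000030785.8) lies on the minus strand of chromosome 7 at chr7:128205435-128206387 of GRCm38, the assembly that mm10 names. Cox6a2 was measured at 141, 141 and 135 TPM in the 0.2 mM libraries and from 43.3 to 53.0 TPM (median 48.5) at 0.8 mM. The 3 low-glycine libraries were nearly equal and each was more than any of the high-glycine libraries (log2 fold change -1.52 ± 0.079, limma adjusted p = 2.21e-07). The exons of Cox6a2 overlap those of Itgad on the other strand, and Itgad was at 0 TPM in every library. Cox6a1, the form of most tissues, lay at 752, 830.3 and 892 TPM at 0.2 mM and from 1327 to 1501 TPM (median 1430.0) at 0.8 mM. It rose with a clear gap between the groups (log2 fold change 0.79 ± 0.06, limma adjusted p = 3.87e-06). Cox6a2 accordingly made up 14.5 ± 1.34% at 0.2 mM and 3.30 ± 0.421% at 0.8 mM of the pair's TPM.

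Cox7a1 (ENSMUSG00000074218.3), at chr7:30184144-30186078 on the plus strand, rose most among the 84 tested members. The 0.2 mM libraries held 4.84, 1.96 and 4.39 TPM of Cox7a1 and those at 0.8 mM from 18.0 to 27.3 TPM (median 23.2). All high-glycine libraries were several times above the highest low-glycine library, with a ratio of mean TPM of 6.17 (log2 fold change 2.39 ± 0.21, limma adjusted p = 1.01e-05). Its general partner Cox7a2 was far more abundant, at 612, 645 and 646 TPM and from 837 to 904 TPM (median 869), and rose without overlap (log2 fold change 0.46 ± 0.041, limma adjusted p = 1.24e-05). Cox7a1 stayed a small part of the pair, with 0.588 ± 0.253% at 0.2 mM and 2.58 ± 0.426% at 0.8 mM.

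Cox8b, the muscle form of subunit VIII, was read at 30.7, 39.9 and 37.8 TPM at 0.2 mM and from 21.0 to 49.4 TPM (median 32.0) at 0.8 mM. Its high-glycine libraries were widely spread on both sides of the low-glycine ones (log2 fold change -0.22 ± 0.27, limma adjusted p = 0.609). Cox8a was the most abundant of all members, at 1995, 2101 and 2233 TPM and from 2658 to 2908 TPM (median 2824). It rose with no overlap (log2 fold change 0.42 ± 0.043, limma adjusted p = 3.68e-05).

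Ndufa4l2 (ENSMUSG00000040280.10), at chr10:127514967-127517154 on the plus strand, is a paralogue of Ndufa4 known to be induced by hypoxia. Ndufa4l2 stood at 24.7, 29.9 and 24.5 TPM at 0.2 mM and from 117 to 155 TPM (median 133) at 0.8 mM. The groups were far apart, with a ratio of mean TPM of 5.10 (log2 fold change 2.31 ± 0.094, limma adjusted p = 4.66e-08). Its exons overlap those of Shmt2 on the other strand, the mitochondrial enzyme that interconverts serine and glycine, which was at 37.6 ± 5.85 TPM at 0.2 mM and 16.4 ± 1.82 TPM at 0.8 mM and so went the other way. Ndufa4 itself was at 368, 392 and 419 TPM and from 564 to 601 TPM (median 581) and rose (log2 fold change 0.56 ± 0.049, limma adjusted p = 1.06e-05). Ndufa4l2 held 6.29 ± 0.780% at 0.2 mM and 18.8 ± 1.75% at 0.8 mM of the pair.

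**Figure D2:**
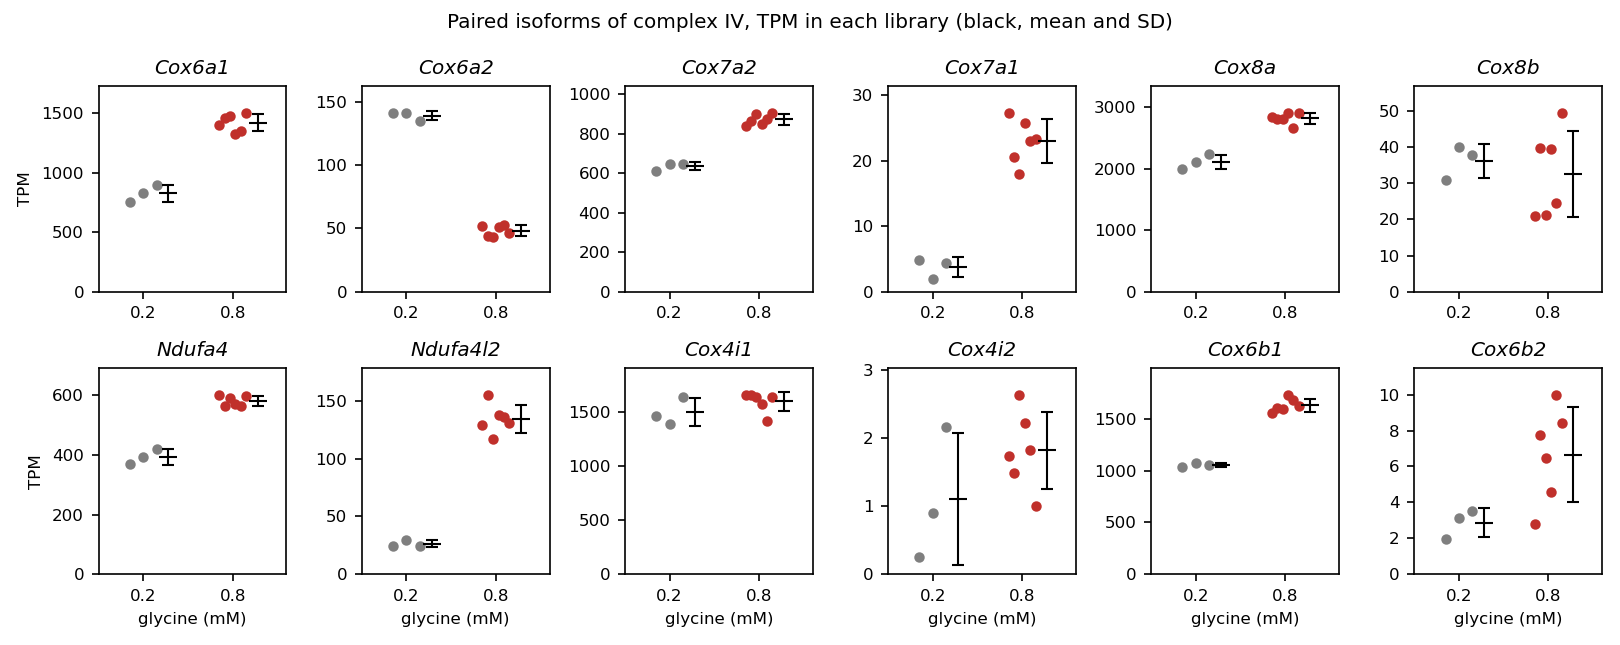
TPM (y axis, from 0) of 12 paired isoforms of complex IV per library (grey points, 3 at 0.2 mM glycine; red points, 6 at 0.8 mM), with mean and SD in black. Cox6a2 is lower in all 6 high-glycine libraries while Cox6a1, Cox7a1 and Ndufa4l2 are higher in all 6, and the points of Cox8b, Cox4i1, Cox4i2 and Cox6b2 overlap.

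The pairs of subunits IV and VIb were dominated by their general forms. Cox4i1, one of the first subunits to join the mitochondrially encoded core, was at 1472, 1395 and 1643 TPM and from 1425 to 1660.5 TPM (median 1644), with overlapping groups (log2 fold change 0.093 ± 0.063, limma adjusted p = 0.315). Cox4i2, its hypoxia-induced form, was near the limit of the filter at 0.248, 0.901 and 2.16 TPM and from 1.01 to 2.63 TPM (median 1.78) and overlapped as well (log2 fold change 0.50 ± 0.28, limma adjusted p = 0.219). Cox6b1 was at 1037, 1078 and 1056 TPM and from 1559 to 1728 TPM (median 1615) and rose (log2 fold change 0.63 ± 0.041, limma adjusted p = 1.09e-06). Cox6b2, a form known from testis, was low at 1.94, 3.13 and 3.50 TPM and from 2.77 to 9.97 TPM (median 7.11). Although Cox6b2 passed (log2 fold change 0.93 ± 0.31, limma adjusted p = 0.0469), its groups overlapped. The call was lost without any 1 of the 3 low-glycine libraries (adjusted p = 0.176, 0.0942 and 0.0692) or without high-glycine library 2, 3, 5 or 6 (adjusted p = 0.0818, 0.0755, 0.0766 and 0.0810).

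Shares of the restricted isoform, or of Atp5g1 for the c ring of ATP synthase, were compared over libraries in 7 families by two-sided exact permutation tests. The share of Cox6a2 was lower, and those of Cox7a1 and Ndufa4l2 higher, in all 6 high-glycine libraries than in any low-glycine library. Each had an exact permutation p of 0.0238, the smallest that this two-sided test can give with the 84 splits of 9 libraries. After adjustment over the 7 families these became 0.0556, so no family passed. These families missed the threshold at the smallest possible p, so the test could not decide on their shares. The share of Cox8b in its family was 1.68 ± 0.173% at 0.2 mM and 1.13 ± 0.390% at 0.8 mM, and its exact permutation p was 0.0714 (adjusted 0.125). For the shares of Cox4i2 and Cox6b2 the exact permutation p was 0.238 each (adjusted 0.278).

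The other complex IV members were mostly abundant, and their changes were smaller than those of Cox7a1, Ndufa4l2 and Cox6a2. Counting the pairs, 11 of 18 tested genes rose and 2 fell, with a median log2 fold change of 0.44. Cox6c, a small subunit of the oxidase, was at 1219.7, 1316 and 1272 TPM and from 2082 to 2203 TPM (median 2111) and rose in a tight pattern (log2 fold change 0.75 ± 0.038, limma adjusted p = 1.8e-07). Cox7a2l, which joins complexes III and IV into supercomplexes, was at 112, 113 and 121 TPM at 0.2 mM and from 80.9 to 94.2 TPM (median 82.9) at 0.8 mM. All high-glycine libraries of Cox7a2l lay below the low-glycine ones (log2 fold change -0.44 ± 0.065, limma adjusted p = 0.000507). Cox7c rose by 0.23 and Cox5a by 0.23 on the log2 scale. Cox5a turned to -0.055 after quantile normalization and missed the threshold without low-glycine library 1 (adjusted p = 0.0599). Cox5b, which binds zinc, and Cox7b did not pass, with 0.065 and 0.17. Cox5b was past the threshold in the opposite direction after quantile normalization (-0.25, limma adjusted p = 0.000577).

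Complex III, which hands electrons from ubiquinol to cytochrome c, changed in all 9 of its genes: 8 rose and 1 fell, with a median log2 fold change of 0.53. Uqcr11, the smallest subunit, was at 324, 369.8 and 354 TPM and from 700.2 to 793 TPM (median 737). Its groups were far apart, with a ratio of mean TPM of 2.11 (log2 fold change 1.08 ± 0.055, limma adjusted p = 1.87e-07). Uqcrb, a ubiquinone-binding subunit, was at 519.6, 516 and 473 TPM and from 740.4 to 802 TPM (median 776) and rose without overlap (log2 fold change 0.62 ± 0.047, limma adjusted p = 3.71e-06). Uqcrh, the hinge protein that contacts cytochrome c1, was at 446, 398 and 450.3 TPM and from 615 to 710.5 TPM (median 696), again without overlap (log2 fold change 0.67 ± 0.059, limma adjusted p = 1.18e-05). Uqcr10 was the most abundant complex III gene at 1116, 1132 and 1089 TPM and from 1347 to 1452 TPM (median 1399) and rose by 0.33 (limma adjusted p = 5.52e-05).

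Uqcrq, another small subunit, went the other way. It was at 682, 686 and 757 TPM at 0.2 mM and from 418 to 602 TPM (median 494) at 0.8 mM. Its high-glycine libraries were spread more widely than those of Uqcrb or Uqcrh, but all were lower than the low-glycine ones (log2 fold change -0.50 ± 0.10, limma adjusted p = 0.0033). Over the 23 alternative settings its log2 fold change lay between -0.71 and -0.44. The nuclear-encoded catalytic subunits rose: cytochrome c1, Cyc1, by 0.57, and the Rieske iron-sulfur protein Uqcrfs1 by 0.33. Cytochrome b, mt-Cytb, which the mitochondrial genome encodes, fell (log2 fold change -0.29, limma adjusted p = 0.00374). The core proteins Uqcrc1 and Uqcrc2 rose by 0.53 and 0.35. The calls of Uqcrfs1 and Uqcrc2 were weak. Uqcrfs1 missed the threshold without low-glycine library 1 or 2 (limma adjusted p = 0.0952 and 0.0987), and Uqcrc2 without library 1 or 3 (limma adjusted p = 0.0789 and 0.0513). Cytochrome c, Cycs, which carries electrons from complex III to IV, was at 41.3, 40.3 and 41.2 TPM and from 46.0 to 55.6 TPM (median 51.9) and rose (log2 fold change 0.30 ± 0.073, limma adjusted p = 0.0107).

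Complex V, the ATP synthase, rose in all 15 of its subunit genes, but not under every setting. After quantile normalization 12 rose: Atp5g2 turned negative there and after the length and GC correction, and Atp5c1 and Atp5h missed the threshold (limma adjusted p = 0.0813 and 0.806). With the replicate number as a block Atp5g1 missed it (limma adjusted p = 0.0555), as did Atp5g2 (0.173). The median log2 fold change was 0.51, and the groups overlapped for none of the 15. Atp5s and Atp5sl, which are not subunits and were counted here by symbol only, had low TPM and did not pass. GENCODE M21 names Atp5sl as Dmac2. In the catalytic F1 head, the alpha subunit Atp5a1 was at 56.5, 52.8 and 62.8 TPM and from 107 to 139 TPM (median 124). It rose most among the ATP synthase genes (log2 fold change 1.10 ± 0.085, limma adjusted p = 4.26e-06). Its catalytic partner, the beta subunit Atp5b, was far more abundant per length, at 1304, 1184 and 1422 TPM and from 1693 to 1982 TPM (median 1916) and rose too (log2 fold change 0.54 ± 0.065, limma adjusted p = 0.00012). The gamma, delta and epsilon subunits of the central stalk, Atp5c1, Atp5d and Atp5e, rose by 0.32, 0.42 and 0.51.

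In the peripheral stalk, Atp5f1, Atp5h, Atp5j and Atp5o rose by 0.39, 0.29, 0.55 and 0.49. The small membrane subunits g, e and f, which take part in dimer formation, rose as well. Subunit g, Atp5l, was the most abundant ATP synthase gene at 1432, 1517 and 1456 TPM and from 2113 to 2217 TPM (median 2163) and rose (log2 fold change 0.56 ± 0.034, limma adjusted p = 6.53e-07). Subunit e, Atp5k, was at 355, 424 and 396 TPM and from 624 to 689 TPM (median 660.2) and rose (log2 fold change 0.74 ± 0.059, limma adjusted p = 5.22e-06). Both had a wide gap between groups, and subunit f, Atp5j2, rose by 0.51.

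The proton-carrying c ring is built from 3 genes whose mature proteins are the same, and they changed unequally. Atp5g3 was at 175, 186 and 197 TPM and from 306 to 342 TPM (median 317) and rose (log2 fold change 0.78 ± 0.057, limma adjusted p = 2.53e-06). Atp5g1, at 129.6, 173 and 159 TPM and from 193 to 228 TPM (median 212), rose with a narrower gap (log2 fold change 0.47 ± 0.089, limma adjusted p = 0.00247). Atp5g2, the most abundant, was at 515, 541 and 560.1 TPM and from 569 to 622 TPM (median 602). Its groups were close though not overlapping (log2 fold change 0.15 ± 0.047, limma adjusted p = 0.0335). The rise of Atp5g2 turned to -0.14 after quantile normalization and -0.086 after the length and GC correction. It also missed the threshold without low-glycine library 1 or 2 (adjusted p = 0.144 and 0.0807) or high-glycine library 1, 2 or 4 (adjusted p = 0.0607, 0.0607 and 0.0633). Of the TPM of the 3 genes, Atp5g2 held 61.4 ± 1.36% at 0.2 mM and 52.9 ± 1.71% at 0.8 mM. Atp5g3 held 21.2 ± 0.460% at 0.2 mM and 28.3 ± 0.998% at 0.8 mM. Neither of these shares overlapped between groups, and neither was tested. The share of Atp5g1, tested with the isoform families, was 17.5 ± 1.71% at 0.2 mM and 18.8 ± 1.24% at 0.8 mM, and its exact permutation p was 0.286 (adjusted 0.286).

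**Figure D3:**
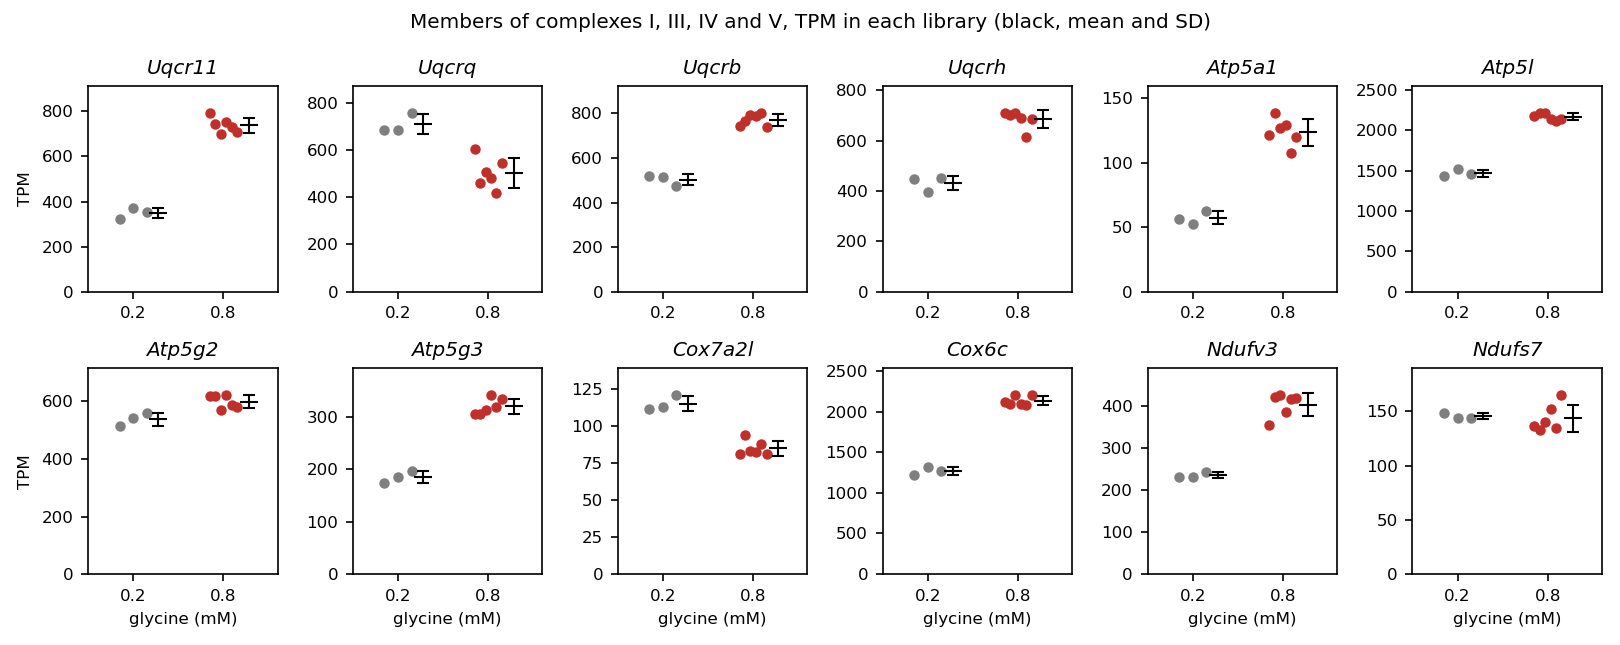
TPM (y axis, from 0) of 12 members of complexes I, III, IV and V per library (grey points, 3 at 0.2 mM glycine; red points, 6 at 0.8 mM), with mean and SD in black. Uqcr11 and Atp5a1 are higher in all 6 high-glycine libraries, Uqcrq and Cox7a2l are lower in all 6, and the points of Ndufs7 overlap.

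Complex I, which oxidises NADH, was divided. Of its 35 genes 22 rose, none fell (also none at an unadjusted p under 0.05, by limma) and 13 did not pass, with a median log2 fold change of 0.27. Only 14 rose after quantile normalization and 12 after the length and GC correction. Genes fell under 3 settings: Ndufv2 with scaling by median ratios, Ndufa7 after quantile normalization, and Ndufa7, Ndufs7 and Ndufv1 after the length and GC correction. Ndufc1, a small subunit of the membrane arm, was the most abundant complex I gene at 1542, 1636 and 1567 TPM and from 2167 to 2472 TPM (median 2206). It rose without overlap (log2 fold change 0.51 ± 0.048, limma adjusted p = 1.87e-05). Ndufv3, an accessory subunit of the module that binds NADH, was at 231, 232 and 243 TPM and from 354 to 425 TPM (median 417) and rose most in complex I (log2 fold change 0.77 ± 0.063, limma adjusted p = 6.7e-06). Ndufa1, a membrane subunit needed for assembly, was at 362, 365 and 359 TPM and from 475 to 528 TPM (median 497). Its low-glycine libraries were nearly equal and below all others (log2 fold change 0.46 ± 0.048, limma adjusted p = 3.77e-05). Ndufb2, of the membrane arm, was at 202, 221 and 222 TPM and from 293 to 364 TPM (median 312) and rose as well (log2 fold change 0.57 ± 0.072, limma adjusted p = 0.000167).

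The accessory genes of complex I were divided, after their values were seen, from those of the catalytic core, whose proteins carry flavin and iron-sulfur clusters or line the path of the electrons. Of 28 accessory genes 20 rose, with a median of 0.31. Beside those above, the accessory genes that rose lay between 0.22 for Ndufa6, which turned to -0.036 after quantile normalization, and 0.58 for Ndufb8. The 8 that did not pass lay between -0.045 for Ndufa7 and 0.20 for Ndufa5. Ndufa7 passed as a fall at -0.34 after quantile normalization (limma adjusted p = 0.00233) and at -0.18 after the length and GC correction (0.0173). In the core, Ndufs3 rose by 0.26 (limma adjusted p = 0.0108), but lost the call under 6 of the 23 alternative settings (highest limma adjusted p = 0.292). Ndufv1, which binds NADH and flavin, was at 22.4, 22.2 and 24.5 TPM and from 19.7 to 23.6 TPM (median 20.1). Ndufv2, its iron-sulfur partner, was at 41.8, 40.1 and 39.2 TPM and from 31.8 to 40.5 TPM (median 36.5). Both had overlapping groups and negative values that did not pass (-0.13 and -0.14 on the log2 scale). Ndufv1 passed as a fall after the length and GC correction (-0.29, limma adjusted p = 0.019), and Ndufv2 with scaling by median ratios (-0.23, limma adjusted p = 0.045). Ndufs7, next to the ubiquinone site, stood at 149, 144 and 144 TPM and from 133 to 165 TPM (median 138) and overlapped (log2 fold change -0.025), and passed as a fall after the length and GC correction (-0.24, limma adjusted p = 0.0316). Ndufs8 was at 0.21 and did not pass. Ndufs1, the largest core subunit, was the lowest complex I gene at 3.43, 6.62 and 7.97 TPM and from 5.73 to 9.47 TPM (median 6.77), and its exons overlap those of Eef1b2 on the other strand, at 374 ± 46.5 TPM and 346 ± 25.7 TPM.

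Complex II, or succinate dehydrogenase, also belongs to the citric acid cycle and had the lowest summed TPM of the 5 complexes. Its catalytic flavoprotein Sdha was at 33.8, 34.6 and 32.4 TPM and from 24.3 to 37.4 TPM (median 30.5), and its high-glycine libraries lay on both sides of the low-glycine ones (log2 fold change -0.16 ± 0.14, limma adjusted p = 0.456). The iron-sulfur subunit Sdhb, the highest of the 4, was at 66.0, 68.2 and 67.0 TPM and from 77.7 to 90.4 TPM (median 80.1) and rose (log2 fold change 0.29 ± 0.065, limma adjusted p = 0.00634). The membrane anchors rose more. Sdhc was at 20.1, 14.5 and 17.9 TPM and from 24.8 to 35.0 TPM (median 28.4) and rose (log2 fold change 0.70 ± 0.13, limma adjusted p = 0.00204). Sdhd was at 22.1, 20.1 and 20.1 TPM and from 25.5 to 33.8 TPM (median 32.2) and rose (log2 fold change 0.55 ± 0.097, limma adjusted p = 0.00168). None of the 3 risen genes overlapped between groups.

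Summed over the genes of a complex, TPM was higher in every high-glycine library than in any low-glycine one for all 5 complexes. Complex I summed to 6876 ± 99.5 TPM at 0.2 mM and 8735 ± 119.6 TPM at 0.8 mM, a ratio of 1.27. The ratio was 1.24 for complex II, 1.32 for complex III, 1.34 for complex IV and 1.43 for complex V. These sums are led by the most abundant genes. The 13 subunits encoded by the mitochondrial genome summed to 19931 ± 2308 TPM and 21043 ± 1306 TPM, and these ranges overlapped. Most of that sum was mt-Atp8, a short gene that overlaps mt-Atp6, at 11838 ± 1247 and 12184 ± 778 TPM. Without mt-Atp8 the sums were 8093 ± 1102 and 8858 ± 557 TPM and still overlapped. Of the 13 genes, 2 rose, mt-Co3 by 1.39 and mt-Co1 by 0.22, and 2 fell, mt-Cytb with -0.29 and mt-Nd4 with -0.41. The share that rose, 15.4%, was near the 16.7% of all genes tested. The sum of the nuclear members divided by that of the mitochondrial genes was 1.42 ± 0.160 at 0.2 mM and 1.80 ± 0.129 at 0.8 mM. The groups did not overlap but were close, at most 1.56 at 0.2 mM and at least 1.585 at 0.8 mM. With mt-Atp8 left out of the divisor they overlap. Low-glycine library 3 then has 28777 over 7188.1 TPM and high-glycine library 5 has 36693 over 9874.5 TPM.

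**Figure D4:**
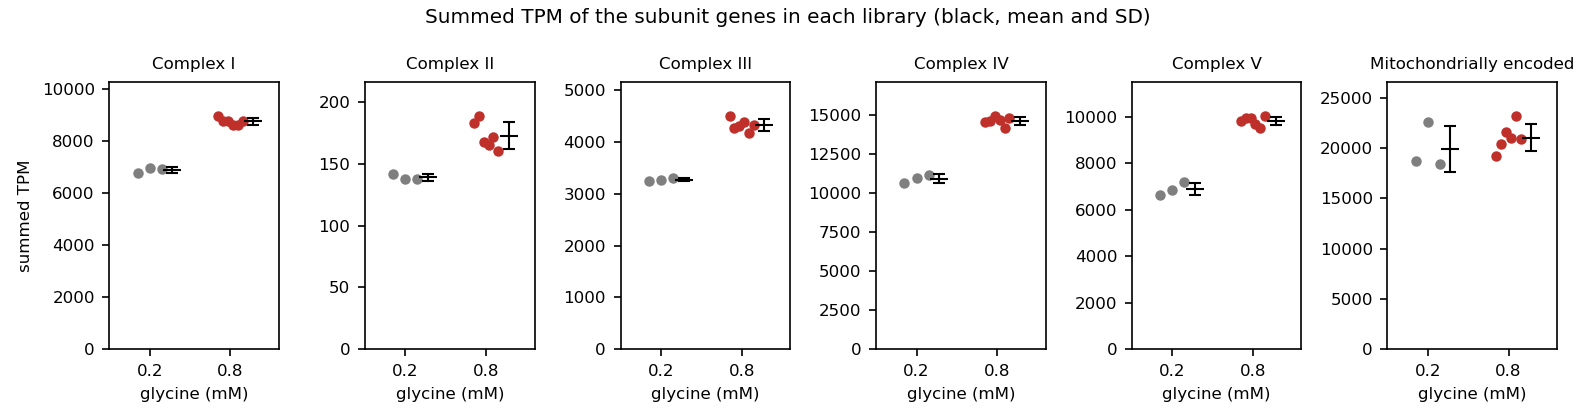
Summed TPM (y axis, from 0) of the genes of each complex and of the 13 mitochondrially encoded subunits per library (grey points, 3 at 0.2 mM glycine; red points, 6 at 0.8 mM), with mean and SD in black. The groups are apart for complexes I to V and overlap for the mitochondrially encoded genes.

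Genes for factors that build the complexes were listed by their roles. Beside the counts that follow, 16.7% of all genes tested rose and 9.81% fell. Of 17 tested genes for complex I assembly and its acyl carrier protein, 2 (11.8%) rose and 1 fell, with a median log2 fold change of 0.11. The acyl carrier Ndufab1, which sits in the complex but whose symbol lies outside the choice, rose by 0.38, Aifm1 rose by 0.57 and Tmem261 fell (-0.40). None of 4 complex II assembly factors passed by limma, and 1, Sdhaf4, was higher at an unadjusted p under 0.05. Of 6 for complex III, Uqcc2 alone rose, from 192 ± 6.54 to 331 ± 25.4 TPM (log2 fold change 0.78). Of 23 for complex IV, 7 rose and 2 fell, with a median of 0.10. The copper chaperone Cox17 rose by 0.30, Higd2a by 0.48 and Higd1a by 0.35. The 2 that fell were Sco2, from 7.56 ± 2.45 to 2.73 ± 0.986 TPM (log2 fold change -1.21, limma adjusted p = 0.00527), and Surf1 (-0.38, limma adjusted p = 0.0197). Of 5 for complex V, Tmem70, which helps to assemble the c ring, rose by 0.75 and Fmc1, listed under a clone name, by 0.34.

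Of 11 tested regulators of mitochondrial genes, none rose by limma and 1 fell, where 16.7% of all genes tested rose and 9.81% fell. The median log2 fold change of the regulators was -0.020. At an unadjusted p under 0.05, 1 was higher and 3 were lower. The one that fell was Gabpb1, a partner subunit of the ETS factor GABP (log2 fold change -0.56 ± 0.17, limma adjusted p = 0.0307), whose groups overlapped. The nuclear respiratory factor Nrf1 was at 5.49 ± 1.00 and 3.39 ± 1.12 TPM and the mitochondrial DNA factor Tfam at 5.53 ± 2.39 and 3.02 ± 0.419 TPM. Neither passed (limma adjusted p = 0.0541 and 0.0511), and the groups of both overlapped. Gabpa and the estrogen-related receptor Esrra did not pass (limma adjusted p = 0.604 and 0.0819). Esrra was higher, at 0.702 ± 0.283 and 1.41 ± 0.472 TPM, and was the 1 tested regulator whose groups did not overlap. The coactivators Ppargc1a and Ppargc1b, known for driving mitochondrial biogenesis in muscle, were below 1 TPM in every library and were not tested. Ppargc1b was at 0.157 ± 0.069 and 0.393 ± 0.129 TPM, with overlapping groups. These are low values, where TPM + 1 understates a change.

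Among 23 carriers, porins and import genes, 6 (26.1%) rose and 4 fell, where 16.7% of all genes tested rose and 9.81% fell. The ADP/ATP carrier of muscle, Slc25a4, rose from 90.2 ± 2.41 to 161 ± 7.90 TPM (log2 fold change 0.83). The phosphate carrier Slc25a3 and the import pore subunit Tomm6 rose by 0.46 and 0.43. The 4 that fell were the porin Vdac3 (log2 fold change -0.49 ± 0.065, limma adjusted p = 0.000241) and the small import chaperones of the intermembrane space Timm9, Timm10 and Timm8b, at -0.63, -0.70 and -0.25 on the log2 scale. Of 15 genes that shape the cristae, where the complexes sit, 3 rose and none fell. The 3 that rose are 20%, near the 16.7% of all genes tested. They were Immt by 0.60, Samm50 by 0.55 and Apoo by 0.55. At an unadjusted p under 0.05 by limma the cristae counts were the same.

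Sequences just upstream of the genes were compared because many members moved together. RefSeq promoter windows of GRCm38.p6, from 250 bases before to 50 after the start, were found for 70 members, some with more than 1 start, giving 76 windows. The members without a window, which were not searched, include Cox6a2, Uqcrq, Ndufa4l2 and Atp5a1. Shown are Cox6a1 and Atp5g3, 2 clear risers with several matches, and the muscle forms Cox7a1, which rose most, and Cox8b, which did not pass. Capitals mark matches on either strand to the motifs named after the sequences.

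Cox6a1, chr5:115348909-115349208, minus strand: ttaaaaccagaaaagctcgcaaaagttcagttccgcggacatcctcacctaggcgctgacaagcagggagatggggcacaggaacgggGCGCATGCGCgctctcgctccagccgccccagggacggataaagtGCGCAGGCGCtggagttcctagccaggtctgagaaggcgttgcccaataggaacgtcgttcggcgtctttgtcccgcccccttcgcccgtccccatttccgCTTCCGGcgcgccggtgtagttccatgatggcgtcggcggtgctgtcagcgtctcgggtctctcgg
Atp5g3, chr2:73911277-73911576, minus strand: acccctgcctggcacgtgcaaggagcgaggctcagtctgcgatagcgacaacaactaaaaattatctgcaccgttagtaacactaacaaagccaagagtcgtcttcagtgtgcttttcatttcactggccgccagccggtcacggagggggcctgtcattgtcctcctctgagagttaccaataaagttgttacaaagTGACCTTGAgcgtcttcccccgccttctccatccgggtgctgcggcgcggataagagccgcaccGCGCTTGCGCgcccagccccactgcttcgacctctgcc
Cox7a1, chr7:30183921-30184220, plus strand: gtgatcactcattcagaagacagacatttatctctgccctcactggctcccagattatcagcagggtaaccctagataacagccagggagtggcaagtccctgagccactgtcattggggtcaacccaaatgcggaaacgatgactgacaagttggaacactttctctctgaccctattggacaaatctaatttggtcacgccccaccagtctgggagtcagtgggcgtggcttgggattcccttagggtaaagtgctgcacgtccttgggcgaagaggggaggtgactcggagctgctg
Cox8b, chr7:140900397-140900696, minus strand: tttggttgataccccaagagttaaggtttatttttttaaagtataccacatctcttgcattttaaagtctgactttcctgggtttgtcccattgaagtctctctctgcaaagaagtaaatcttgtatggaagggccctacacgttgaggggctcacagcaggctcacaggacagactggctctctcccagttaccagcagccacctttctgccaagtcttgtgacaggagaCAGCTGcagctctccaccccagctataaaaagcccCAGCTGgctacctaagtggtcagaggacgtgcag

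The window of Cox6a1 holds GCGCATGCGC and GCGCAGGCGC, which match the NRF1 motif, any base being allowed at the inner place where they differ, and an ETS motif CCGGAAG on its other strand. That of Atp5g3 holds an NRF1 match and the motif TCAAGGTCA of estrogen-related receptors, both on its other strand. Cox8b has the E-box CAGCTG, the letters that myogenic factors bind, at 2 places. In the window of Cox7a1 none of the motifs searched was found.

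Over the 76 member windows, the NRF1 motif was in 23.7%, compared with 4.60% of all 32851 windows of the RefSeq table. The ETS motif was in 21.1% and 8.86%, the YY1 motif AAGATGGCG in 11.8% and 1.40%, and the estrogen-related receptor motif in 2.63% and 0.423%. The E-box was in 7.89% of member windows and 16.3% of all windows, and the MEF2 motif in 0% and 3.19%. Of the 76 member windows, 54 belong to members that rose. These held 14 of the 18 member windows with the NRF1 motif, 14 of 16 with the ETS motif and 5 of 9 with the YY1 motif. They also held 4 of 6 with the E-box and 2 of 2 with the estrogen-related receptor motif, and none had the MEF2 motif. Whether members that rose differ from the other members in these motifs was not tested. The ETS and YY1 motifs can share the letters AAG where one runs into the other. Matches are letters in a window and were not tested as binding sites. No correlation of the log2 fold change was strong over the 84 tested members: Spearman's rho was 0.038 with transcript length, 0.047 with GC content and 0.226 with mean TPM. Length and GC content were those of the longest annotated transcript of each gene, which may not be the one expressed. Mean TPM came from the same libraries as the fold change.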

How the data were processed

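The authors deposited 1 table of TPM for 53715 gene IDs in 9 libraries, made with HISAT2 2.0.5, StringTie 1.3.3 and DESeq2 on mm10 per the submitters' processing notes. Per the labels' protocols, Trizol was used to extract total RNA and the Illumina TruSeq RNA kit to build libraries. Annotation release, strand use and the order of steps were not given in the sources used here. All columns have nearly the same sum, so a fall of an abundant RNA raises all other values, and the depth is unknown. No 2 libraries held identical values.

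Members were matched to GENCODE M21 by gene ID. Genes with at least 1 TPM in at least 3 libraries entered a two-sided limma test (version 3.58.1, R 4.3.3) of log2(TPM + 1) across the 9 libraries, using lmFit and trended eBayes. The fit was tested on simulated data. Isoform shares were compared by exact permutation tests in scipy 1.17.1. Values by library are given for both isoforms of a family, for each complex's most abundant gene and up to 4 genes with the smallest p, and for each gene that fell. From each pathway list up to 3 genes with the smallest p are named, with Ppargc1a, Ppargc1b, Esrra, Nrf1, Gabpa and Tfam. Other genes named were chosen after their values were seen. The members and lists were chosen with earlier results of these data known. Of the alternatives, the length and GC correction was added after seeing the data, and it used the longest annotated transcript of each gene. The planned comparison of protein isoforms was not made here, and 1 member enters the counts and sums but is not reported here by itself. Replicate numbers are shared between the glycine levels. Same-numbered libraries deviated from their group means with correlations of 0.038, 0.0023 and 0.107, so the numbers were not taken as pairs. Python 3.11.15 and matplotlib 3.10.9 made the figures.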

Additional observations from a re-analysis of the deposited data

Results flagged for a closer look

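Among the 6 libraries at 0.8 mM glycine, 1 library stood apart from the other 5 for 6 members, with a gap to the nearest library that was large beside the whole range by Dixon's criterion. Of 96 groups of values examined 6 met it, and chance gives about 1 in 20. Library 5 was the lowest for Ndufa6 of complex I (512 TPM, the next 533 TPM), for Cox4i1 of complex IV (1425 TPM, the next 1582 TPM) and for Uqcrh, the hinge protein of complex III (615 TPM, the next 687 TPM). Library 6 was the highest for Atp5e, the epsilon subunit of ATP synthase (1893 TPM, the next 1789 TPM), and for the Rieske protein Uqcrfs1 (86.2 TPM, the next 74.6 TPM). Library 2 was the highest for Ndufb8 of complex I (189 TPM, the next 163 TPM). Without these libraries, Ndufa6, Uqcrh, Atp5e, Uqcrfs1 and Ndufb8 still rose and Cox4i1 still did not pass.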

How the results depend on the processing

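Over 23 alternatives, 37 of the 63 called members (34 that rose and 3 that fell) held their call under all. Members that rose numbered from 43 after quantile normalization to 60, and 53 to 59 with 1 library left out, where 3 fell each time. Those that fell numbered 5 after quantile normalization and 6 after the length and GC correction. Complex I genes that rose numbered 14 and 12 under these. Under scaling by median ratios the ratio of summed TPM was 1.20 for complex I, 1.25 for complex III, 1.26 for complex IV and 1.34 for complex V. Depth is unknown, so low genes such as Cox4i2 and Atp5s are limited only by their spread.

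Log2 fold changes changed sign in 14 members, of which Atp5g2, Cox5a and Ndufa6 were called; the cause was not tested. After quantile normalization they were -0.14 for Atp5g2, -0.012 for Cox4i1, -0.055 for Cox5a, -0.25 for Cox5b, -0.11 for Cox7b, -0.022 for Ndufa10, -0.082 for Ndufa12, -0.036 for Ndufa6, -0.051 for Ndufb4, -0.14 for Ndufb6 and -0.15 for Ndufb9. After the length and GC correction they were -0.086 for Atp5g2, -0.12 for Cox4i1, -0.050 for Cox5b, -0.016 for Ndufa10, -0.0029 for Ndufa12, -0.090 for Ndufb4, -0.086 for Ndufb6 and -0.14 for Ndufb9. With median ratios they were -0.020 for Cox5b, -0.026 for Ndufb4, -0.053 for Ndufb6 and -0.026 for Ndufb9. Ndufb6 was at -0.0050 without ribosomal RNA and mitochondrial genes and -0.015 without ribosomal protein genes. With 1 library left out, Atp5s ranged from -0.47 to 0.24, Ndufs1 from -0.064 to 0.44 and Ndufs8 from -0.0016 to 0.37.

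With the replicate number as a block, over libraries 1 to 3 of each level, 49 members rose and 3 fell, and in the same 6 libraries without the block 53 rose and 3 fell. Over all genes the block gave 1117 that rose and 596 that fell, and without it 1312 and 736. Atp5s was at 0.17 with and without the block. Low-glycine libraries 1 and 3, but not library 2, correlated best with the high-glycine library of the same number.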
